A study of Mus musculus with 25 samples.

Results

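The nuclear-encoded subunits of the mitochondrial respiratory chain were examined in left ventricle mRNA of 25 male mice. Members were chosen by gene symbol alone, as protein-coding genes named Nduf (a, b, c, s or v and a digit), Sdha to Sdhd, Uqcr, Cyc1, Cox4i, Cox5 to Cox8 or Atp5. The rule gave 85 of the 35968 genes listed, with 37 in complex I, 4 in complex II, 9 in complex III, 18 in complex IV and 17 in complex V. Ndufab1 does not match this rule and was read in a list of mobile carriers, coupling and export instead. A filter on low values (mean of at least 1 TPM, a transcript abundance corrected for length) kept 83 of them for testing among 11978 genes, and the 2 that did not pass were Cox7b2 and Cox8c, both known from testis. The study asked how carnosine, a histidine-containing dipeptide, acts on the heart in diet-induced obesity. WT mice and GPx4+/- littermates, which carry 1 disrupted allele of glutathione peroxidase 4 in every tissue and were kept by backcrossing to C57BL6/J, were 8 to 10 weeks old at the start. For 16 weeks they were fed either normal chow (CNTL, 6% of kcal as fat) or a diet rich in fat and sucrose (HFHS). The HFHS diet had 35.5% of kcal as fat, 38% as sucrose and 1.5% as cholesterol. The paper states that mice were fasted and then given dextrose or saline before death, and the sample titles do not say which. WT CNTL and WT HFHS mice, GPx4+/- CNTL and GPx4+/- HFHS mice, and a further WT HFHS + Carnosine group given 80 mM carnosine in the drinking water from week 7, made up 5 groups of 5 mice.

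The respiratory chain moves electrons from NADH (complex I) and succinate (complex II) through complex III and cytochrome c to oxygen at complex IV, and complex V uses the resulting proton gradient to make ATP. Complexes I, III, IV and V combine subunits encoded in the nucleus with 13 encoded in mitochondrial DNA, whereas complex II is wholly nuclear. The beating heart draws most of its ATP from this chain, and several complex IV subunits have a heart and skeletal muscle isoform beside one found in most tissues.

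TPM summed to 1e+06 in every library and keeps no read depth, so the precision of a value rests on the spread between mice. Transcripts of the mitochondrial genome took from 31.3% to 48.7% of TPM and the 85 members from 5.41% to 7.24%. Values were therefore scaled between libraries by median ratios, with factors from 0.866 to 1.16, and are given below as scaled TPM, which is per transcript length. Gpx4 itself, the targeted gene, lay at 670 ± 50.4 in WT CNTL and 304 ± 44.0 in GPx4+/- CNTL (SD, n = 5 each), with no overlap between genotypes on either diet. The 10 ventricular cardiomyocyte markers were detected in all mice and summed to 44815.5 to 57347. Markers of atrial cardiomyocytes (8 of 8 tested) summed to 4703 in WT CNTL replicate 3, to 7491 and 1537 in GPx4+/- CNTL replicates 1 and 2, and to 2815 in GPx4+/- HFHS replicate 4, against 51.7 to 645 in the other libraries. In GPx4+/- CNTL replicate 2 the 6 hepatocyte markers also summed to 1148, while elsewhere they reached at most 102. These 4 libraries stand apart from the rest, and values without them are given beside the results they change or in the closing section.

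Respiratory chain genes were among the most abundant nuclear mRNAs of the ventricle. Their median level was 643 scaled TPM against 9.03 over all genes tested, 77 of the 83 reached 100 and 21 reached 1000, against 756 and 80 of the 11978 genes tested. By complex the median was 436 in complex I, 542 in complex II, 856 in complex III, 985 in complex IV and 1027 in complex V. Ndufa4, which its symbol places with complex I although the protein is now assigned to complex IV, was the highest of its complex by symbol at 1409. Ndufa4l2, a relative of Ndufa4 known as a hypoxia-induced gene, was the lowest there at 23.5. Sdhb, the iron-sulfur subunit, led complex II at 761, followed by Sdha, the flavoprotein, at 668. The membrane anchors Sdhd and Sdhc had 416 and 393. The complex III levels lay close together, from 505 for Uqcrc1, a core subunit, to 1353 for Uqcr11, a small subunit. In complex IV the ratio of the highest to the lowest level was largest, from 3.27 for Cox6b2, a testis isoform, to 2402 for Cox4i1, the common form of subunit 4. Atp5b, the catalytic beta subunit of ATP synthase, reached 3599 and was the highest of all members, and Atp5s, named as coupling factor B, had 20.2. Cox7b2 averaged 0.254 and Cox8c was listed at 0 in every library.

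**Figure D1:**
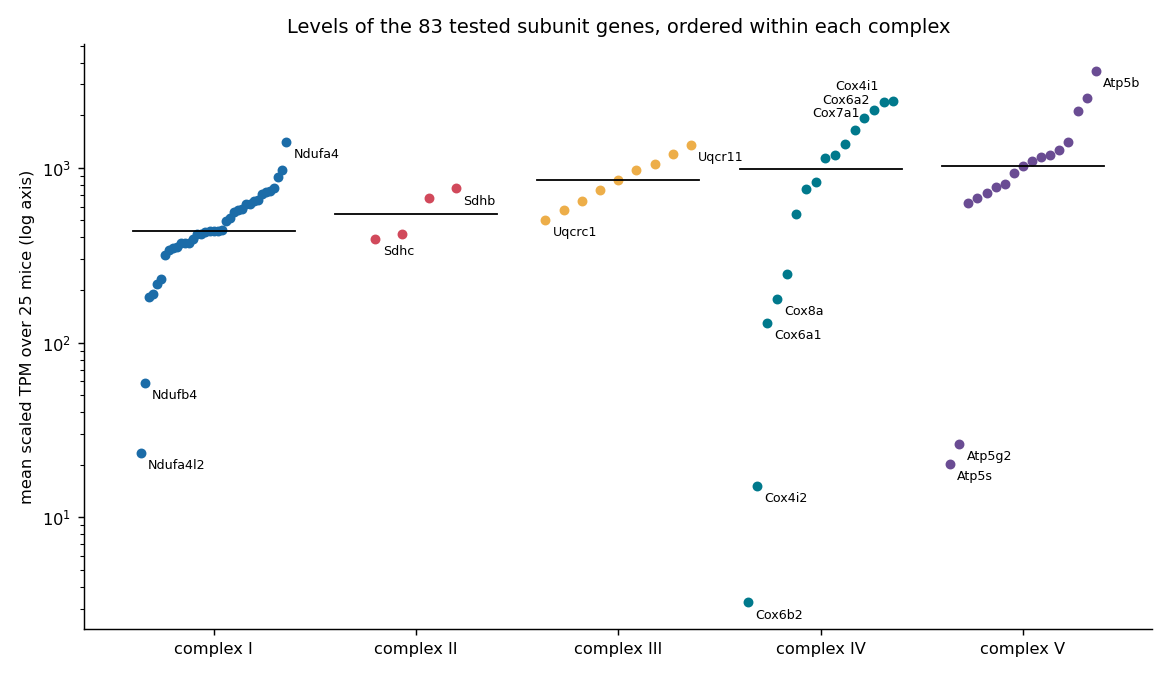
Mean scaled TPM over 25 mice (log axis) of each of the 83 tested members, 1 point per gene, ordered within its complex, with a line at the complex's median. Most members lie between 100 and 3599, and Ndufa4l2, Ndufb4, Cox4i2, Cox6b2, Atp5g2 and Atp5s are the 6 below 100.

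Within a group the members varied little between mice. The coefficient of variation, averaged over the groups, had a median of 7.92% over the members and 10.3% over all genes tested, and ranged from 4.72% to 37.5%, the last for the barely expressed Cox6b2. The median level was 643 scaled TPM for the members and 9.03 for all genes, and spread was not compared at matched level. The complexes kept nearly fixed proportions. Complex I held 28.0% ± 0.344 of the summed member level, complex II 3.44% ± 0.0844, complex III 12.1% ± 0.147, complex IV 25.9% ± 0.279 and complex V 30.6% ± 0.418 (SD over 25 mice).

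The summed level of a complex varied between mice more than between groups, and the same mice tended to be high or low in all complexes. Complex I summed to 18512, 19391, 16070, 19228 and 19192 in the 5 WT CNTL mice and to 19660, 16595, 18182, 16166 and 19727 on WT HFHS. For GPx4+/- CNTL the sums were 16631, 17646, 18029, 18605 and 18893, for GPx4+/- HFHS 19294, 17111, 18759, 18614 and 17298, and for WT HFHS + Carnosine 17556, 21053, 17411, 18922 and 17599. All 5 groups overlapped. WT CNTL replicate 3, one of the 4 libraries with atrial markers, was the lowest of its group in all 5 complexes and in 79 of the 83 tested members. WT HFHS + Carnosine replicate 2 was the highest of its group in all 5 complexes and in 77 members. GPx4+/- CNTL replicate 1, the library with most atrial marker mRNA, was the lowest of its group in all 5 complexes and in 58 members. The remaining libraries of the 4 were not the lowest of their groups in any complex. GPx4+/- CNTL replicate 2 summed to 62696 over all members, in a group from 60514 to 67398. GPx4+/- HFHS replicate 4 summed to 67058, in a group from 60813 to 67457, and was the highest of its group in complex V. The atrial markers of WT HFHS + Carnosine replicate 2 summed to 645. Over all 85 members the sum ran from 57998 to 75919, a 1.31-fold range, and the ribosomal proteins of the cytosol spanned 1.20-fold. The part of other cell types in these sums was not tested, and in bulk tissue fewer cardiomyocytes and less mRNA per cardiomyocyte cannot be told apart.

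**Figure D2:**
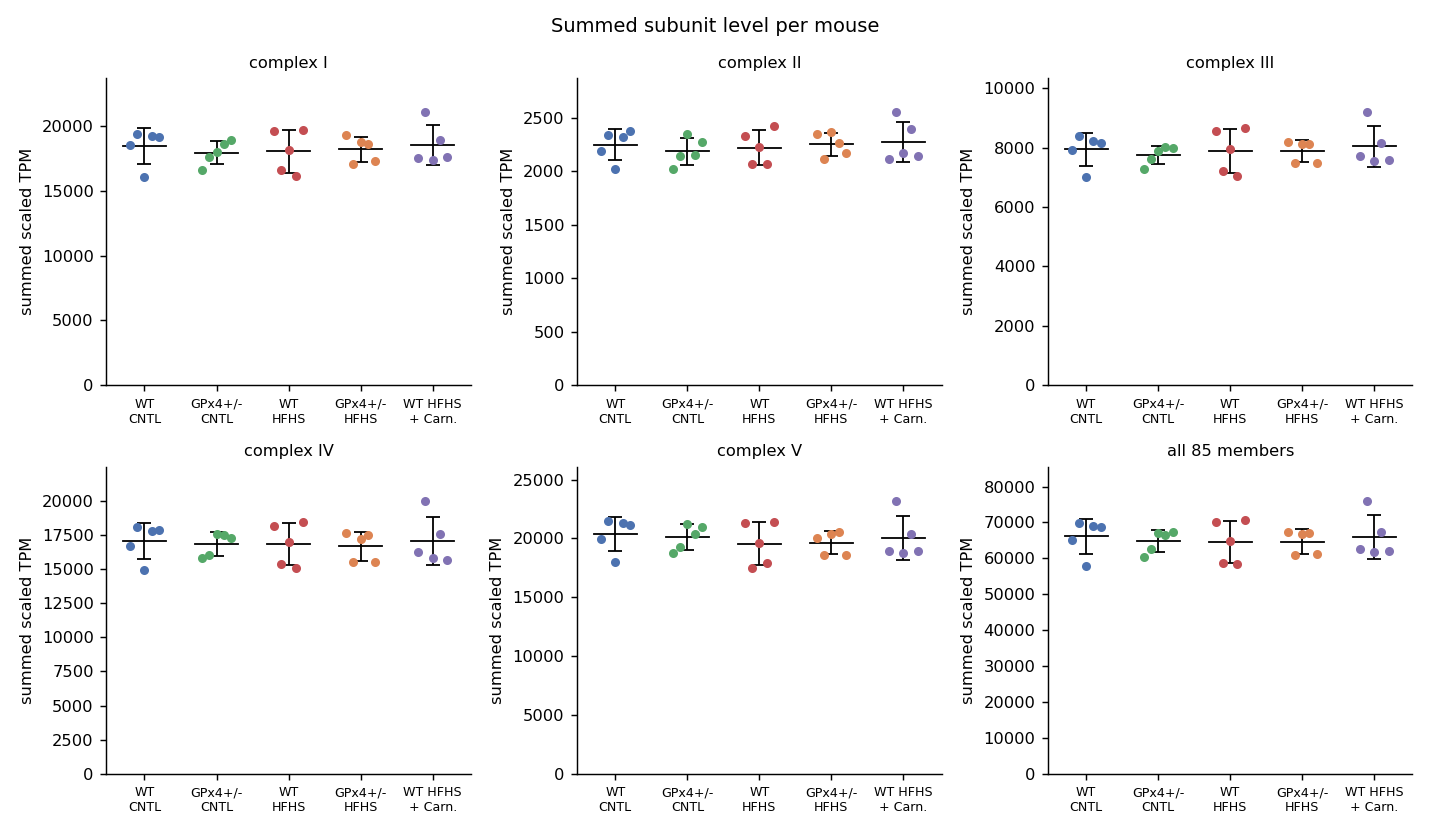
Summed scaled TPM of each complex and of all 85 members (vertical axes from 0), 1 point per mouse in replicate order, with the group mean as a line and the SD as a bar. The 5 groups overlap in every panel, and in every complex WT CNTL replicate 3 is the lowest mouse of its group and WT HFHS + Carnosine replicate 2 the highest of its own.

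The group means of the sums differed little. Over all 85 members WT CNTL averaged 66092 ± 4846, WT HFHS 64524 ± 5929 and WT HFHS + Carnosine 65909 ± 6063 (SD, n = 5 each). GPx4+/- CNTL averaged 64865 ± 3087 and GPx4+/- HFHS 64654 ± 3389 (SD, n = 5 each). For no complex were the highest and the lowest group mean more than 4.27% apart, while mice of 1 group varied by a median of 7.19% (coefficient of variation). That largest gap was 7.32% without WT CNTL replicate 3, 6.84% without WT HFHS replicate 5 and 6.64% without WT HFHS replicate 1. Without the 4 libraries with atrial markers it was 8.04%, when scaled without mitochondrial transcripts 6.58%, and with TPM as deposited 10.6%.

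The first comparison asked what the HFHS diet did in WT hearts. None of the 83 members passed an adjusted p of 0.05 in limma, fitted across all genes, where 0.968% of all genes did. At an unadjusted p under 0.05 there were 2 members, against 16.6% of all genes, and 59 of the 83 had a lower mean on HFHS. The members' median log2 fold change was -0.04, against -0.00 over all genes, and single members ran from -0.16 to 0.27. The 95% interval of the log2 fold change stayed within 0.5 of 0 for 82 members.

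Ndufa4l2 had 23.6, 19.9, 19.2, 21.6 and 20.8 scaled TPM in WT CNTL and 26.1, 26.1, 25.0, 24.2 and 25.1 in WT HFHS. Every WT HFHS mouse was above every WT CNTL mouse, with a log2 difference of 0.27 (SE 0.0683) and a limma adjusted p of 0.0663. Of the 83 members it was the only 1 without overlap between these groups. The share of all genes without overlap was not computed. Ndufa12, an accessory subunit of complex I, had 449, 472, 383, 464 and 424 on WT CNTL and 451, 379, 384, 334 and 423 on WT HFHS, and the groups overlapped (log2 -0.16, SE 0.0698, limma adjusted p = 0.272). Atp5l, subunit g of ATP synthase, averaged 842 ± 31.2 and 765 ± 104 (SD, n = 5 each), with overlap. Its log2 difference was -0.15 and its limma adjusted p was 0.346.

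By complex, 28 of 37 members of complex I and 15 of 17 of complex V had lower means on WT HFHS, whereas complexes II (2 of 4), III (5 of 9) and IV (9 of 16) were split. The median moved with single mice. Without WT CNTL replicate 3 it was -0.09, and without WT HFHS replicate 4 it was 0.00. The latter library had the most smooth muscle marker mRNA (521 summed scaled TPM, against 66.0 to 249 in the other 24) and 660 of fibroblast markers, the highest of all, and the part of these cells in the result was not tested. Of the 10 ventricular markers, Myh6 (log2 -0.17, limma adjusted p = 0.0402) and Ttn (log2 -0.26, limma adjusted p = 0.00108) fell with the diet over both genotypes, and 8 of the 10 had lower means, all but Actc1 (0.05) and Ryr2 (0.04). Of the 7 fibroblast markers all had higher means in that comparison, and Lum (log2 0.55, limma adjusted p = 0.0367) and Pdgfra (log2 0.29, limma adjusted p = 0.0411) rose. Cidea, of the adipocyte markers, rose as well (log2 0.29, limma adjusted p = 0.00389), while Cfd, the other adipocyte marker tested, had a log2 value of -0.42 and did not pass (limma adjusted p = 0.709). The 5 smooth muscle markers had log2 values from 0.52 to 0.77, and none passed. Over both genotypes 8.29% of all genes passed, and in WT alone none of these markers did. The part of all these markers' cells in the members' values was not tested.

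For GPx4+/- hearts, too, no member passed with the diet, and 3.17% of all genes did. At unadjusted p there were 2 members and 18.1% of all genes. Here 35 of the 83 had a lower mean on HFHS, and the median log2 fold change was 0.01 (range -0.14 to 0.16), against 0.01 over all genes. Without GPx4+/- CNTL replicate 1 the median was -0.01. With TPM as deposited, which moved the median of all genes to -0.10, the members' median was also -0.10 and 80 were lower. Ndufb3, a small accessory subunit of complex I, had 156, 194, 163, 183 and 185 on CNTL and 201, 202, 192, 190 and 191 on HFHS. The HFHS mice lay in a narrow band around the upper end of the CNTL mice (log2 0.15, SE 0.0680, limma adjusted p = 0.235). Cox7a2l, placed with complex IV by its symbol, averaged 236 ± 6.35 and 256 ± 13.6 (SD, n = 5 each), a log2 difference of 0.11 with a limma adjusted p of 0.258. Ndufa3 had a log2 difference of 0.16 and a limma adjusted p of 0.285.

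Averaging the diet effect over both genotypes gave smaller errors than either genotype alone, and 1 member passed, Ndufa4l2, or 1.20% of the members tested against 8.29% of all genes. The members called changed with the scaling: 8 passed after quantile normalization (3 higher and 5 lower, beside 8.75% of all genes), 4 lower when scaled without mitochondrial transcripts (6.30%) and 3 lower with TPM as deposited (5.95%). Ndufa4l2 rose by 0.18 on the log2 scale (SE 0.0483, 95% interval 0.08 to 0.28, limma adjusted p = 0.0258), which is 1.13-fold. Its values in GPx4+/- CNTL were 20.9, 22.9, 21.4, 24.1 and 24.1, and in GPx4+/- HFHS 28.0, 22.1, 21.5, 24.1 and 25.8, so that the genotype's 2 diet groups overlapped. The call was lost without GPx4+/- HFHS replicate 5 (limma adjusted p = 0.0511), without the 4 libraries with atrial markers (log2 0.15, limma adjusted p = 0.121), with no filter on low values (0.0506), and with TPM as deposited (log2 0.13, 0.273) or scaled without mitochondrial transcripts (log2 0.15, 0.0762). Ndufa4l2 is known from pericytes. A list of 8 mural cell markers, chosen after the values were seen, summed to 287 to 353 in WT CNTL and 303 to 343 in WT HFHS, and to 301 to 398 in GPx4+/- CNTL and 347 to 376 in GPx4+/- HFHS. Over both genotypes 7 of the 8 had higher means on HFHS, by 0.03 (Rgs5) to 0.19 (Vtn) on the log2 scale, Abcc9 had -0.15, and none passed. The part of mural cells in the Ndufa4l2 value was not tested.

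At unadjusted p under 0.05 the diet comparison over both genotypes held 5 members, 3 higher and 2 lower, or 6.02% against 24.3% of all genes. Ndufa3, an accessory subunit of complex I, lay at 650, 696, 588, 709 and 702 in WT CNTL and 795, 629, 747, 683 and 838 in WT HFHS. In GPx4+/- CNTL it had 600, 622, 696, 665 and 704, and in GPx4+/- HFHS 765, 677, 788, 747 and 685. The HFHS means were higher but each pair of groups overlapped, and the log2 difference was 0.15 (SE 0.0537, limma adjusted p = 0.0969).

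Atp5o, the stalk subunit that confers oligomycin sensitivity on ATP synthase, had 1121, 1246, 1015, 1186 and 1177 in WT CNTL and 1128, 970, 1083, 993 and 1148 in WT HFHS. In GPx4+/- CNTL the values were 1100, 1077, 1164, 1183 and 1194, and in GPx4+/- HFHS 1122, 983, 1099, 1082 and 961. Both pairs overlapped, with a log2 difference of -0.12 (SE 0.0452, limma adjusted p = 0.111). Without the 4 libraries with atrial markers Atp5o passed (log2 -0.17, limma adjusted p = 0.0446), as did Ndufb9, another accessory subunit of complex I (log2 -0.18, limma adjusted p = 0.0379).

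**Figure D3:**
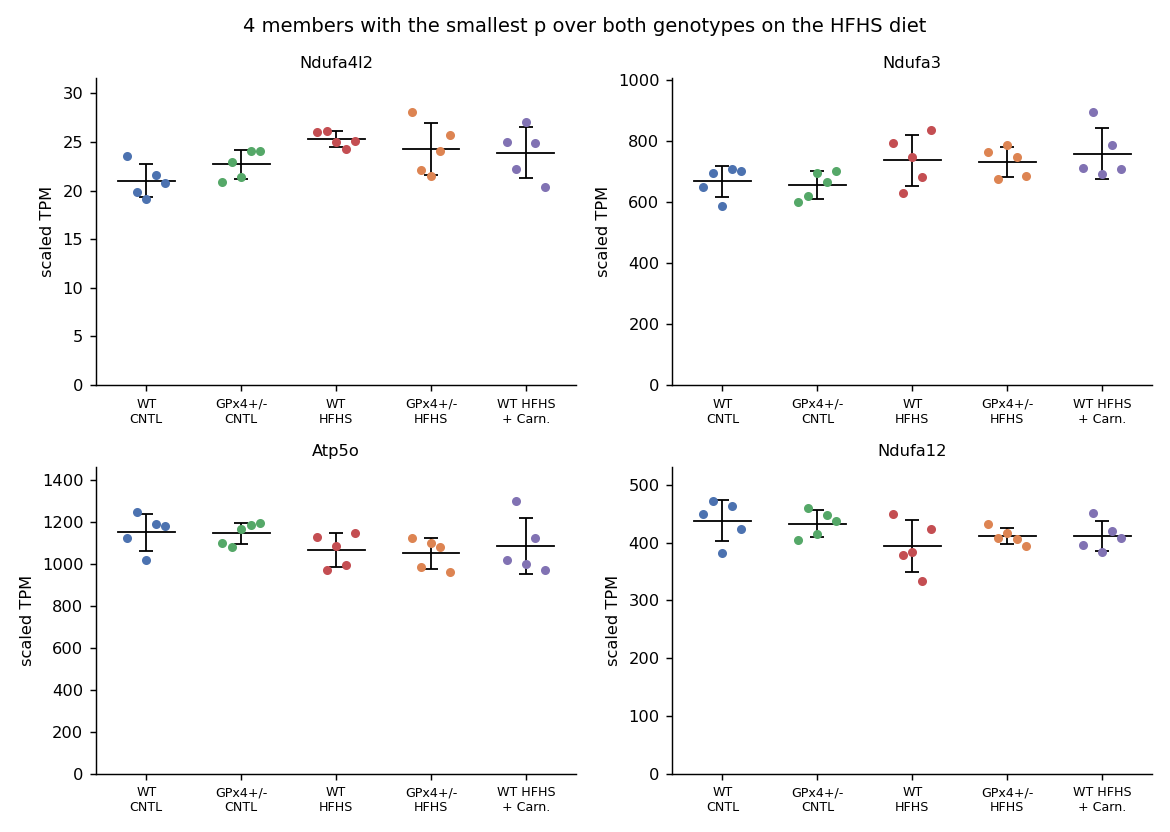
Scaled TPM (vertical axes from 0) of Ndufa4l2, Ndufa3, Atp5o and Ndufa12, 1 point per mouse in replicate order, with the group mean as a line and the SD as a bar. Ndufa4l2 in WT is the only case of the 4 in which the HFHS mice (24.2 to 26.1) lie wholly above the CNTL mice (19.2 to 23.6), and the other 3 genes overlap between diets.

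Without the 4 libraries the members lay lower on the diet. Their median over both genotypes moved from -0.01 to -0.06, with 71 of 83 lower against 49 with all libraries, while the median of all genes stayed at -0.00. In WT the median became -0.09 with 72 lower, and in GPx4+/- -0.04 with 61 lower. Complexes IV and V had the lowest medians with all libraries, -0.04 and -0.05, and 14 of 17 complex V members were lower over both genotypes. With all libraries the members' median absolute log2 fold change over both genotypes was 0.03, against 0.08 over all genes tested. These medians were not matched for level.

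The genotype comparison asked whether the loss of 1 Gpx4 allele altered the chain. Gpx4 had a log2 fold change of -1.15 on CNTL and -1.01 on HFHS (limma adjusted p = 4.71e-07 and 4.31e-06), and no respiratory chain member passed on CNTL, on HFHS or over both diets, where 0.0501%, 0.0501% and 0.0584% of all genes did. No member reached an unadjusted p under 0.05 in any of these 3 comparisons either, whereas 6.24%, 4.56% and 3.9% of all genes did. On CNTL 63 of 83 members had lower means in GPx4+/-, with a median of -0.03, against -0.01 over all genes. With TPM as deposited 27 did, where the median was 0.02 over the members and 0.03 over all genes. After quantile normalization 33 did, with medians of 0.01 and -0.00. With the median-ratio scaling the members' median was -0.07 without WT CNTL replicate 3 and -0.00 without GPx4+/- CNTL replicate 1, both among the libraries with atrial markers. On HFHS 34 had lower means, with a median of 0.01. The count was 76 with TPM as deposited, where all genes moved alike (median -0.07 over both the members and all genes). Without WT HFHS replicate 4 the members' median was -0.03. Without the 4 libraries with atrial markers 42 were lower on HFHS and the median was -0.00. Over both diets 46 had lower means, with a median of -0.01. The count was 68 with TPM as deposited, with a median of -0.02 over both the members and all genes, and 31 after quantile normalization, with medians of 0.02 and -0.00. Leaving out 1 mouse moved the members' median over both diets from -0.03 (WT CNTL replicate 3) to 0.01 (WT HFHS replicate 1), so that its direction was not fixed.

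The smallest p on CNTL belonged to Ndufb3, whose WT values of 205, 202, 163, 197 and 184 overlapped those of GPx4+/- given above (log2 -0.11, limma adjusted p = 0.821), followed by Ndufa4l2 (0.11, 0.825) and Ndufa7 (-0.09, 0.852). Over both diets they were Atp5s (log2 0.14), Cox6a2 (-0.08) and Ndufb4 (0.08), each with a limma adjusted p of 1.00. On HFHS they were Atp5s (0.20, limma adjusted p = 0.982), Ndufb4 (0.12) and Ndufs5 (0.11), the last a pair of accessory subunits of complex I with the same adjusted p as Atp5s. All 4 complex II genes had lower means in GPx4+/- on CNTL, with log2 differences from -0.10 to -0.01, but on HFHS 3 of the 4 were higher.

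The effect of the diet was also compared between genotypes. No gene of any kind passed that test (0% of all genes), and 0 members reached an unadjusted p under 0.05, against 7.4% of all genes. The difference had a value above 0 for 65 of the 83 members, with a median of 0.05. Single mice moved that median from 0.01 (without WT HFHS replicate 4) to 0.09 (without WT CNTL replicate 3), and without the 4 libraries with atrial markers it was 0.03, with 29 members below 0 instead of 18. With TPM as deposited, which shifts the median of all genes to -0.11, 1 member was above 0. The smallest p were those of Ndufa4l2 (-0.17, limma adjusted p = 0.708), Ndufb3 (0.17, 0.714) and Ndufs1 (0.10, 0.777), the core subunit that holds several iron-sulfur clusters of complex I.

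Carnosine was compared within the 10 WT HFHS mice. No member and no gene passed (0% of all genes, adjusted), and 1 member had an unadjusted p under 0.05, against 4.23% of all genes. There were 61 members with a higher mean with carnosine, and the median log2 fold change was 0.04 (range -0.17 to 0.28), against 0.00 over all genes. The mouse that was highest in 77 members, replicate 2, belongs to the carnosine group, and without it the median was -0.01. With TPM as deposited 71 members had lower means with carnosine instead of 22, but that scaling also moved the median of all genes to -0.07, below the members' median of -0.04. For 81 members the 95% interval stayed within 0.5 of 0.

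The member with the smallest p was Atp5g2, 1 of 3 genes for the same mature c subunit of the ATP synthase ring. It had 20.6, 20.3, 32.6, 24.0 and 23.4 in WT HFHS and 30.3, 34.0, 27.1, 28.7 and 25.3 with carnosine, and the groups overlapped (log2 0.28, SE 0.123, limma adjusted p = 0.947). Ndufb4 had 62.4, 48.3, 59.9, 47.8 and 58.7 without and 57.4, 69.7, 61.1, 58.9 and 61.7 with carnosine, again with overlap (log2 0.16, limma adjusted p = 0.947). Ndufs5 averaged 338 ± 44.6 and 373 ± 32.3 (SD, n = 5 each). Ndufa4l2 with carnosine had 25.1, 22.2, 27.0, 24.9 and 20.3, a range that took in all WT HFHS values.

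**Figure D4:**
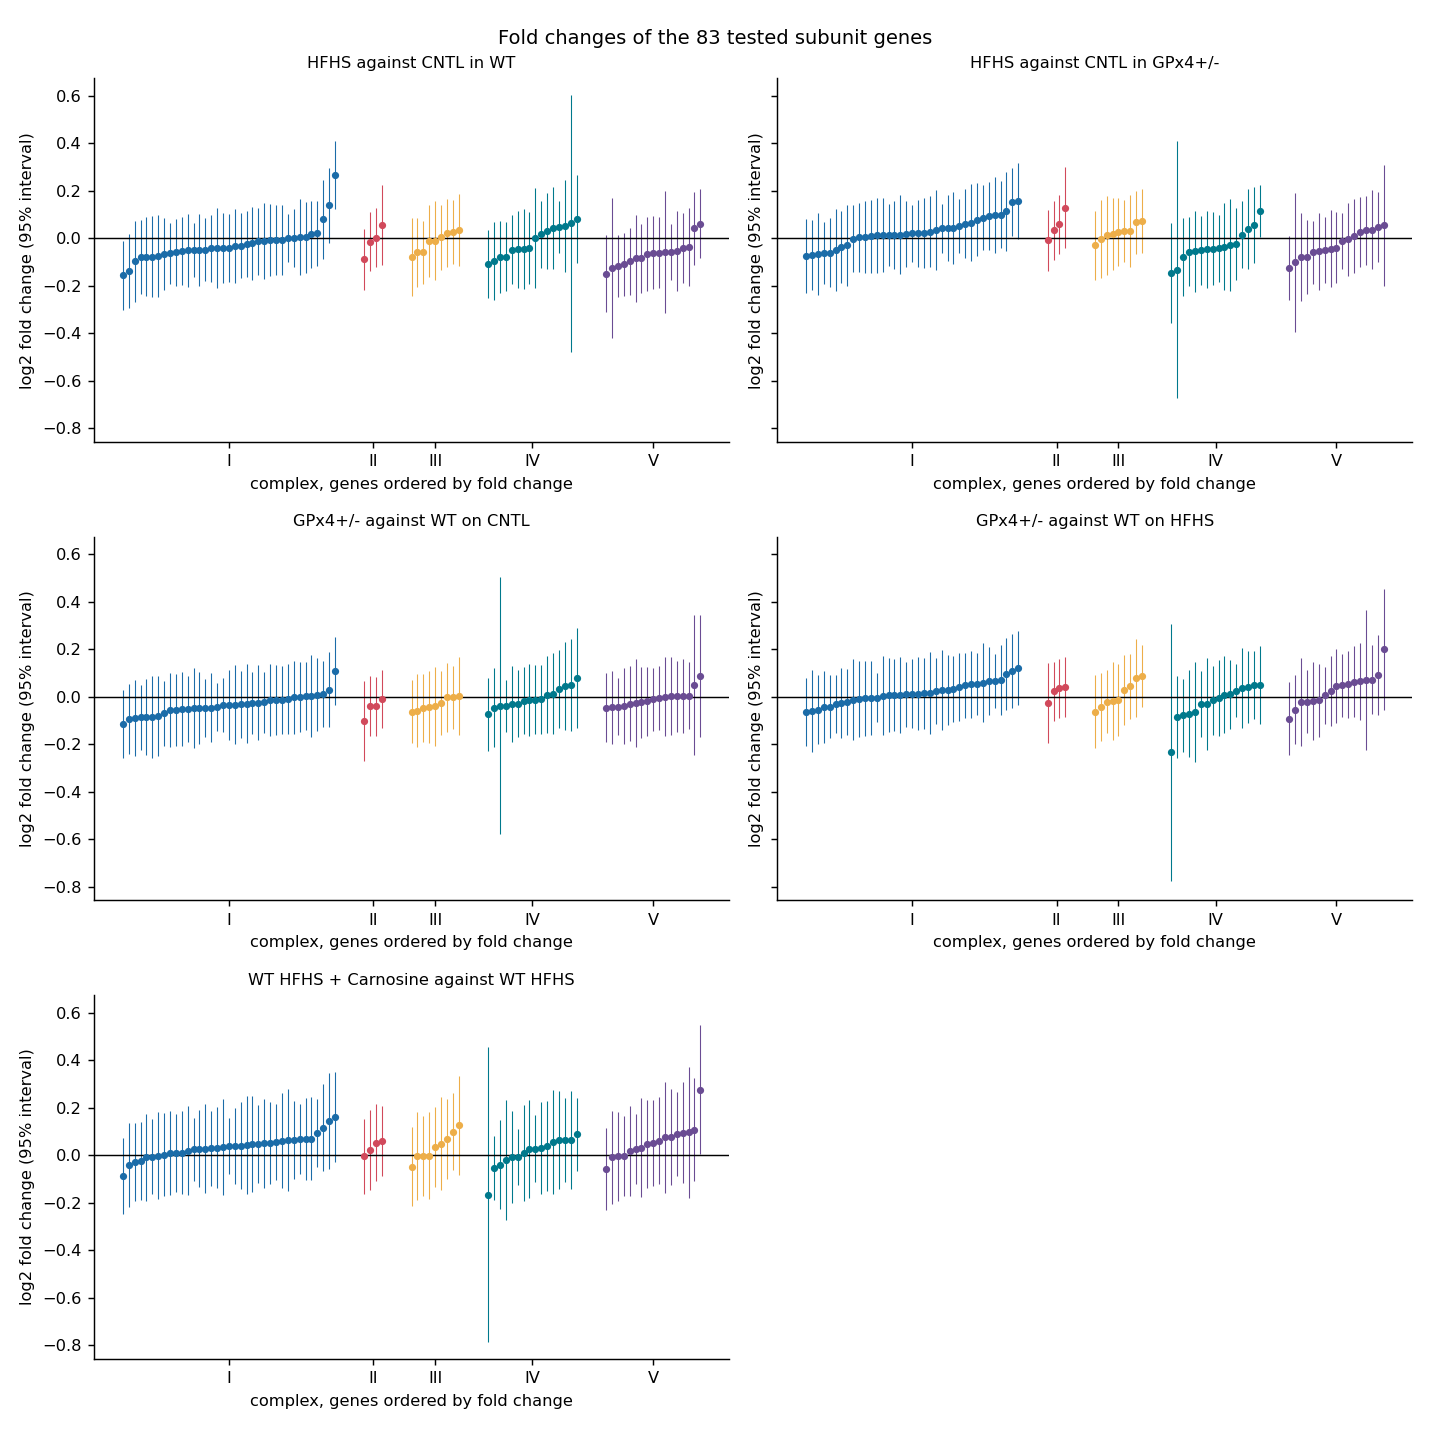
Log2 fold change with its 95% interval (vertical axis) for each of the 83 tested members, grouped by complex and ordered by fold change, in the 5 comparisons of a pair of groups. In each comparison at most 1 point lies beyond 0.2 in either direction and at most 2 intervals exclude 0. The widest intervals belong to Cox6b2.

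Where a subunit has tissue isoforms, the heart forms made up most of the mRNA in all 25 mice. Cox6a2, the heart and muscle form of subunit 6a, made up 94.6% to 95.4% of Cox6a1 plus Cox6a2 in WT CNTL and 94.2% to 95.4% in WT HFHS. Cox8b held 91.7% ± 0.901 and 91.4% ± 0.776 of the Cox8 pair in the same groups (SD, n = 5 each). Cox7a1 held 79.0% ± 0.913 of the Cox7a1 plus Cox7a2 level in WT CNTL, the least one-sided of the muscle forms. The minor forms stayed low in every mouse. Cox4i2, known from lung and from hypoxia, was 0.473% to 0.815% of subunit 4 mRNA, and Cox6b2 was 0.134% to 0.506% of subunit 6b mRNA. Atp5g1 gave 54.6% ± 0.824 of the summed Atp5g1, Atp5g2 and Atp5g3 level in WT CNTL.

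Across 7 isoform sets and 5 comparisons, 35 exact two-sided permutation tests were run, in which 5 mice against 5 cannot go below p = 0.00794. The share of Ndufa4l2 in its pair with Ndufa4 was 1.56%, 1.27%, 1.53%, 1.44% and 1.44% in WT CNTL and 1.59%, 2.15%, 1.84%, 1.97% and 1.66% in WT HFHS. These groups did not overlap, and the exact p was the smallest possible, 0.00794, or 0.278 after adjustment over the 35 tests. The Cox7a1 share averaged 79.0% and 80.5% in the same comparison (exact permutation p = 0.0397, adjusted 0.694), and leaving out any 1 of 7 of the 10 mice took that p above 0.05. No isoform share passed after adjustment.

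**Figure D5:**
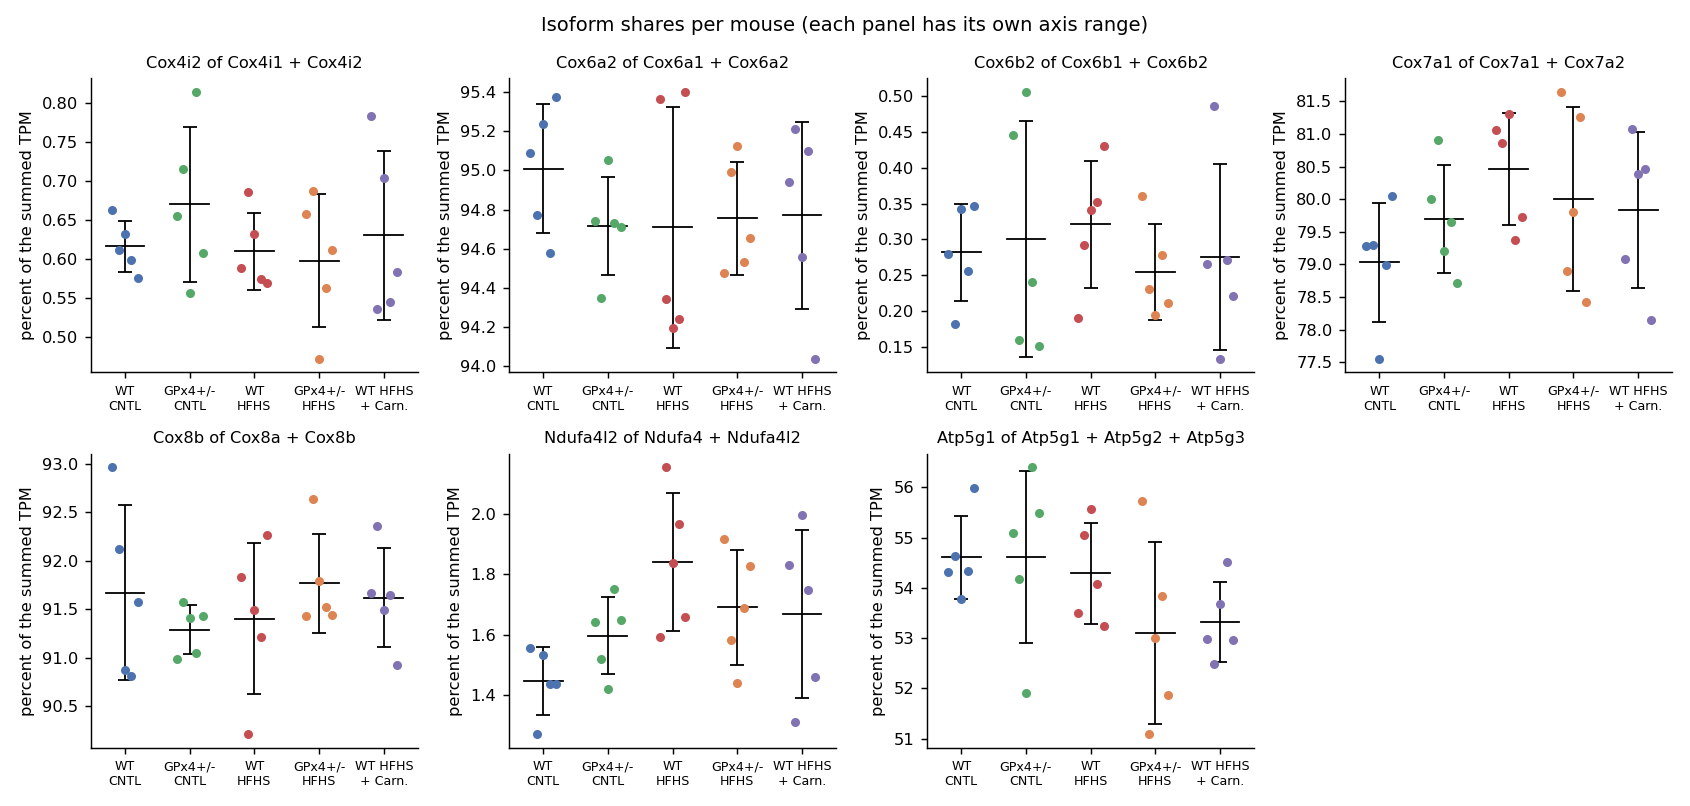
Share of the named isoform in the summed scaled TPM of its isoform set, in percent, 1 point per mouse in replicate order, with the group mean as a line and the SD as a bar. Axis ranges differ between panels and do not start at 0. The shares of Cox6a2 stay between 94.0% and 95.4% in all 25 mice, and the Ndufa4l2 share of WT HFHS lies above that of WT CNTL.

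Promoter sequences were read for the members. Nuclear respiratory factor 1 (NRF1), the ETS family factor GABP, YY1 and the estrogen-related receptors (ERR) are known regulators of respiratory genes, and their core letters were searched on both strands in RefSeq windows of GRCm38.p6, from 250 bases before to 50 after each start. Windows were found for 68 of the 85 members (73 windows). GCGCATGC (NRF1) occurred in 13.7% of member windows and 2.71% of all 32851 windows, CCGGAAG (ETS) in 21.9% and 8.86%, AAGATGG (YY1) in 15.1% and 6.34%, and AAGGTCA (ERR) in 11.0% and 4.72%. At least 1 of the 4 was present in 47.9% of member windows and 20.7% of all. A match is a run of letters and not a measured binding site.

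Stretches of 170 bases around the start are shown for the common forms Cox6a1 and Cox8a and for the muscle forms Cox8b and Cox7a1, as examples of windows with and without the searched letters, picked after the search. They do not stand for all isoforms of either kind, since the common form Cox7a2 has none of the letters either and no window was found for the muscle form Cox6a2. Letters that match a motif or its reverse complement are in capitals. Positions are chr5:115348952-115349121 (minus strand), chr19:7217607-7217776 (minus), chr7:140900437-140900606 (minus) and chr7:30184004-30184173 (plus), in the order of the lines.
Cox6a1: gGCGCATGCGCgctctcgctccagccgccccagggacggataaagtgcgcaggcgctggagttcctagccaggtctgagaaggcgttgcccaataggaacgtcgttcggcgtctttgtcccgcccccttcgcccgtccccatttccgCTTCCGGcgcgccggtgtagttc
Cox8a: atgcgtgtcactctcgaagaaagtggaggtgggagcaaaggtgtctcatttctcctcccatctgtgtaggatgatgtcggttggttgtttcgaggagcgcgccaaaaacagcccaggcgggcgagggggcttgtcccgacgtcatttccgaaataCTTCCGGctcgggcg
Cox8b: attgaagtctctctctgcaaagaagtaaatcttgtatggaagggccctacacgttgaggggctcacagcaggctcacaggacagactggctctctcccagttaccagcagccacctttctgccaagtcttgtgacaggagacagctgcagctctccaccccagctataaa
Cox7a1: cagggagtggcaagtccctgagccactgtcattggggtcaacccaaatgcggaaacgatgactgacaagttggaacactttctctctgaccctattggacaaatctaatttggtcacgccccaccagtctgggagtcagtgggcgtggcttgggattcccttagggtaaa
Cox6a1 has the NRF1 letters, overlapping themselves on both strands, and 1 ETS match, and Cox8a has 1 ETS match in this stretch. Cox8b and Cox7a1 have no match in the whole window, and neither has Cox7a2, the common partner of Cox7a1. In mean level over the 25 mice Cox8b had 1923 scaled TPM and Cox8a 177.

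Some members are a mixture of transcripts. Protein-coding transcripts made up at least 95% of the TPM in 63 of the 83 members, with a median of 99.5%, but less than 50% in 5, among them Ndufs4 (16.9%), Ndufa5 (22.9%) and Cox5b (36.1%), so that the summed level of these genes is mostly from transcripts of other annotated types. Atp5c1, the gamma subunit, has a 37-base exon on chromosome 2 (10056770 to 10056806, GRCm38) whose skipping is known from heart and muscle. Protein-coding transcripts with it held 5.54% ± 0.472 of the protein-coding Atp5c1 level in WT CNTL and 6.26% ± 0.417 in GPx4+/- HFHS (SD, n = 5 each). The coding sequence ends differently in the 2 forms, shown here from the annotated transcripts with the last 24 bases of the exon they share in lower case and the end of the reading frame, stop codon included, in capitals.
with the exon: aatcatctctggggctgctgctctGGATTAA
without the exon: aatcatctctggggctgctgctctGTAA
The form without the exon had 964 TPM on average and the form with it 59.0. Ndufv3 likewise has a long form with a long coding exon on chromosome 17 (31527310 to 31528401), which held 1.58% ± 0.206 of its protein-coding level in WT CNTL. In 10 exact permutation tests of these exon shares the smallest p was 0.0397, for Atp5c1 with the diet in GPx4+/- (5.54% and 6.26%), or 0.397 after adjustment.

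Near-identical copies limit 1 member. Of 85 members 11 had another transcript of at least 95% identity over at least 60% of their length, and in 10 of them the copies' level was 1.10% of the member's or less. The exception was Atp5g2, whose pseudogene Gm10175 on chromosome 7 had 100% identity over 60% and a mean of 454 scaled TPM, against 26.4 for Atp5g2 itself. The level of Atp5g2, and the Atp5g1 share that uses it, are uncertain for this reason. With both records summed, WT HFHS had 483 ± 36.2 and WT HFHS + Carnosine 479 ± 38.9 (SD, n = 5 each), and the Atp5g1 share in WT CNTL was 49.8%.

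Other genes of mitochondrial energy supply were read from lists. None of the 13 mitochondrial-encoded subunits passed in any comparison. With the diet in GPx4+/- all 13 had higher means (median log2 0.23), and in WT 4 of 13 (median -0.05), while their sum ranged 2.03-fold over the mice. The highest sum was that of GPx4+/- HFHS replicate 2, 547934 scaled TPM against 317117 to 463732 in the rest of its group. Between genotypes all 13 had lower means in GPx4+/- on CNTL (median -0.08) and higher means on HFHS (median 0.21), and with carnosine all 13 were higher as well (median 0.17). The lowest sum was that of WT HFHS replicate 2, 269282 scaled TPM against 349903 to 458645 in the rest of its group. The part of single mice in these medians was not tested. None of 14 citric acid cycle genes, 15 transcriptional regulators or 86 cytosolic ribosomal protein genes passed in any comparison. All calls in the lists were for the diet over both genotypes, in which 8.29% of all genes passed. Of 44 assembly factors 1 rose, Cox18 (log2 0.17, limma adjusted p = 0.0400), which helps insert a mitochondrial-encoded subunit of complex IV. Of 78 mitochondrial ribosomal proteins 1 rose (Mrpl28) and 3 fell (Mrps15, Mrps30, Mrps31).

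Among 23 genes for mobile carriers, coupling and export, 3 fell with the diet, and the adjusted p of Slc25a4 and Ucp3 lay close to the threshold. Atpif1, the inhibitor of reversed ATP synthase activity, fell by 0.31 on the log2 scale (limma adjusted p = 0.0187). Slc25a4, the main ADP/ATP carrier of heart, fell by 0.19 (limma adjusted p = 0.0464) and Ucp3, an uncoupling protein induced by fatty acids, by 0.62 (limma adjusted p = 0.0478). The list's median was -0.03, beside -0.00 over all genes tested.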

How the data were processed

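Left ventricle poly(A) mRNA of 25 mice was sequenced, and groups and replicate numbers were taken from the sample labels. The authors deposited TPM per transcript and library, and columns were matched by the library name in the header, since column positions in the labels disagree. The submitters' processing notes name kallisto 0.43.1 and sleuth 0.30.0 with GRCm38, whereas the paper describes STAR and DESeq2. TPM were summed per gene for 116772 of 119215 transcripts that matched GENCODE M21, and the gene sums were scaled by median ratios (15018 genes) and taken to log2 after adding 0.5. Genes with a mean of at least 1 entered limma 3.58.1 (R 4.3.3) with Benjamini-Hochberg adjustment over all genes, called under 0.05. One fit took the 20 mice without carnosine, another the 10 WT HFHS mice with and without it. TPM are not counts, so limma took the place of DESeq2. No counting error can be given, since TPM keeps no depth. Fold changes on this log2 scale understate those of low genes. Isoform and exon shares were compared by exact two-sided permutation (scipy 1.17.1), and copies were searched with blastn 2.17.0. The tests were tried on simulated data.

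The members and lists were chosen with earlier results of these data known. Named are Gpx4, the highest and lowest member of each complex, complex II, the isoform sets, and per comparison the called members or the 3 with the smallest p. Ndufb9, Ndufb4 as a low gene, Ndufs4, Ndufa5, Cox5b, Atp5f1, Gm10175, the Atp5c1 and Ndufv3 exons and the mural markers were chosen after their values were seen. Alternatives were the pseudocount, the filter, scaling, protein-coding transcripts alone, the replicate block, array weights, the mice in the fit, each mouse left out, and, chosen after seeing the data, the 4 libraries with atrial markers left out.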

Additional observations from a re-analysis of the deposited data

Results flagged for a closer look

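In 230 sets of 5 mice (5 complex sums, 7 isoform shares and 34 named genes in each of 5 groups), 12 had 1 mouse far from the others, with a gap to its nearest neighbour of over 0.71 of the whole range. Chance gives about 1 in 20, or 11.5, and the 12 are not independent, since 10 of them come from the same 2 mice.

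WT CNTL replicate 3, which had atrial marker mRNA, was the low mouse for the complex I sum (gap 0.735 of the range, 16070 against 18512 to 19391), Uqcr11 (0.901), Ndufa7 (0.860), Ndufb4 (0.782) and Cox8b (0.731). WT HFHS + Carnosine replicate 2 was the high mouse for Atp5g3 (0.874), Ndufa4 (0.793), Sdhd (0.788), Cox7a2 (0.755) and Atp5l (0.749). GPx4+/- CNTL replicate 1, the mouse with most atrial marker mRNA, was low for Sdhb (0.767, with 697 against 758 to 776 scaled TPM). WT HFHS replicate 4, the mouse with most smooth muscle marker mRNA, was low for Cox4i2 (0.871, with 12.5 against 15.3 to 15.7 scaled TPM). The part of other cell types in these values was not tested.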

How the results depend on the processing

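For the diet in WT, 0 members passed (0.968% of all genes), but 1 did without mitochondrial transcripts (Ndufa12, beside 0.716% of all genes), with protein-coding transcripts alone (1.28%) or with array weights (3.38%; both Ndufa4l2), and 0 to 1 with each mouse left out. In GPx4+/- 0 passed (3.17% of all genes), but 1 with TPM as deposited (Atp5f1, beside 3.53%), without mitochondrial transcripts (1.73%) or after quantile normalization (3.04%; both Atp5o). Over both genotypes 1 passed, beside 8.29% of all genes, against 0 with no filter (2.67% of all genes), 3 with TPM as deposited (5.95%), 4 without mitochondrial transcripts (6.30%), 8 of 83 after quantile normalization (3 higher, 5 lower; 8.75%), 2 without the 4 libraries with atrial markers (7.18%), and 0 to 2 with each mouse left out (2 without WT CNTL replicate 3 or WT HFHS replicate 2, 0 without GPx4+/- HFHS replicate 5). Of 35 isoform tests 2 had p under 0.05, 1 without the 4 libraries, and 1 to 3 with each mouse left out. In the genotype, interaction and carnosine comparisons 0 members passed under every alternative run. The cause of these changes was not tested.

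All genes called for the diet numbered 116 in WT (38 with TPM as deposited, 405 with array weights, 36 to 191 with each mouse left out, lowest without WT CNTL replicate 4 and highest without WT CNTL replicate 3), 380 in GPx4+/- (134 with only the 2 groups compared, 197 to 471 with each mouse left out, lowest without GPx4+/- HFHS replicate 5) and 993 over both genotypes (691 to 1252). Without the 4 libraries with atrial markers they numbered 196 in WT, 247 in GPx4+/- and 860 over both genotypes. With TPM as deposited the calls in GPx4+/- split 37 higher to 387 lower, against 262 to 118, and over both genotypes 142 to 572, against 563 to 430. Without mitochondrial transcripts the latter split 283 to 527, and in WT 39 to 53 against 62 to 54. With the replicate block the members called stayed at 0, 0 and 1, and the WT calls fell from 116 to 64 genes. Same-numbered mice did not deviate together on average (mean correlation -0.010 over 50 pairs, 0.004 over 200 other pairs). Single pairs ran from -0.342 to 0.233 and from -0.372 to 0.609. A mean over pairs does not show whether some of the mice or genes share a block.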
